A study of Macaca mulatta with 22 samples.

Results

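Transcripts of nuclear-encoded oxidative phosphorylation genes were followed through meiotic maturation, fertilization and preimplantation development of the rhesus macaque. Entries of the deposited table were taken when their gene symbol named a subunit of respiratory complex I (NDUF symbols), II (SDHA to SDHD), III (UQCR symbols and CYC1), IV (COX4 to COX8 symbols) or V (ATP5 symbols), or an assembly factor or inhibitor whose symbol shares those letters. Of 35468 entries 91 matched by name, and 76 of these reached 1 RPKM (reads scaled by gene length and by the reads mapped in the library) in at least 2 of the 22 libraries and were tested, against 14312 of all entries. The tested entries comprised 29 of 35 for complex I, 6 of 6 for complex II and 6 of 9 for complex III. They also comprised 13 of 15 for complex IV, 13 of 15 for complex V and 7 of 8 for associated factors. Of 3 further entries with readthrough, antisense or pseudogene names 2 were tested, both named NDUFA6-AS1. NDUFA4, which was first described as a complex I protein and is now placed in complex IV, was counted with complex IV. The tested entries carry 68 symbols, since 8 symbols have more than 1 entry. Of the tested entries 36 were at 1 RPKM or more in all 22 libraries, and of the 15 entries that were not tested 5 were listed at 0 throughout. Just inside the filter lay UQCRFS1, at 1.295 and 1.059 RPKM in its highest libraries and 0.333 RPKM in the next, and ATP5D, at 14.4, 2.99 and 0.561 RPKM. Just outside lay the chromosome 5 entry of UQCR11, at 1.45 and 0.586 RPKM. The 13 genes of the mitochondrial genome were not analysed here.

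Each library came from 1 whole oocyte or embryo. Later stages are set against earlier ones below, so the stages in their own order were germinal vesicle (GV) oocytes with 2 libraries, metaphase I (MI) oocytes with 2, metaphase II (MII) oocytes with 3, pronuclear (PN) embryos with 3, 2-cell (2C) embryos with 2, 4-cell (4C) embryos with 3, 8-cell (8C) embryos with 2, morulae (Mo) with 3 and blastocysts (Bl) with 2. Per the labels, the 7 oocytes were taken after death from donors that had been superovulated, and the 15 embryos were produced by injecting a sperm into the oocyte and culturing the embryo in vitro. The labels name neither donors nor parents, so p-values measure the spread between these single oocytes and embryos only.

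The respiratory chain passes electrons from NADH (complex I) and succinate (complex II) through complex III to complex IV, which reduces oxygen. Complexes I, III and IV pump protons across the inner mitochondrial membrane, and complex V, the ATP synthase, uses the gradient to make ATP. All subunits of complex II and most of those of the other complexes are encoded in the nucleus, and the remainder in mitochondrial DNA. Oocytes carry a large maternal store of mitochondria, and early embryos are known to rely on pyruvate oxidation before glucose use rises around the blastocyst stage.

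The whole-read steps of short entries placed the mapped depth at 5.58 to 21.4 M reads a library. Library 2 of the morulae stood apart, with 4277 entries at 1 RPKM or more against 6763 to 10017 in the other libraries, and with 48 tested members at that level, so the counts and medians it moves most are also given without it. The marker lists followed the stage labels only in part. Of 14 oocyte entries, 14 reached 1 RPKM in GV oocytes and 6 in morulae. Their summed levels were 138 to 380 RPKM in morulae, against 4200.0 to 4214 RPKM in GV oocytes. In blastocysts they summed to 375 to 937 RPKM, with OOEP at 552 and 234 RPKM and KHDC3L at 380 and 132 RPKM. Genome activation genes (6 of 7 matched) summed to 8217 and 9456 RPKM in 8C embryos, against 12.7 to 18.1 RPKM in 4C embryos. They stayed at 2476 to 10599 RPKM in morulae and at 676 to 1863 RPKM in blastocysts. Genes of the blastocyst epithelium (7 of 7 matched) summed to 961 and 1234 RPKM in blastocysts, against 4.01 to 69.3 RPKM in morulae. RPKM values are shares of a library, and fewer cells or less RNA per cell cannot be told apart in them.

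The share of the members in a library was lower in MII than in GV and MI oocytes, lowest in 2C and 4C embryos and highest in blastocysts. Their median level was 34.3 and 39.0 RPKM in MI oocytes, against 31.5 and 32.5 RPKM in GV oocytes, so at this step the median did not follow the share, which the most abundant genes carry. The tested members held 2.59 to 2.85% of the summed RPKM of a library in GV oocytes, 1.95 to 1.97% in MI oocytes, 0.807 to 1.33% in MII oocytes and 0.602 to 1.13% in PN embryos. Their share was 0.436 to 0.552% in 2C and 0.498 to 0.602% in 4C embryos, 1.08 to 1.18% in 8C embryos, 0.921 to 1.84% in morulae and 3.76 to 4.90% in blastocysts. The GV and MI libraries did not overlap with any PN, 2C or 4C library, and the blastocysts did not overlap with any other stage. By the mean of the stage, 59 of 76 members were highest in blastocysts, where 18.1% of all tested entries have their highest mean, and 10 in GV oocytes. The lowest mean lay in 2C embryos for 22 members, in 4C embryos for 19 and in MII oocytes for 14. In 66 of 76 members every blastocyst library was above every PN, 2C and 4C library, a pattern that 21.7% of all tested entries showed. In 39 members every blastocyst library was above every library of all other stages, against 6.37% of all entries. In 38 members the GV and MI libraries all lay above the PN, 2C and 4C libraries, against 13.1% of all entries. NDUFS8 and ATP5D had passed the filter through the blastocyst libraries alone, and UQCRFS1 through the 8C libraries alone. A limma F test over the 9 stages called 66 of 76 members at an adjusted p under 0.05, against 68.3% of all entries.

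**Figure D1:**
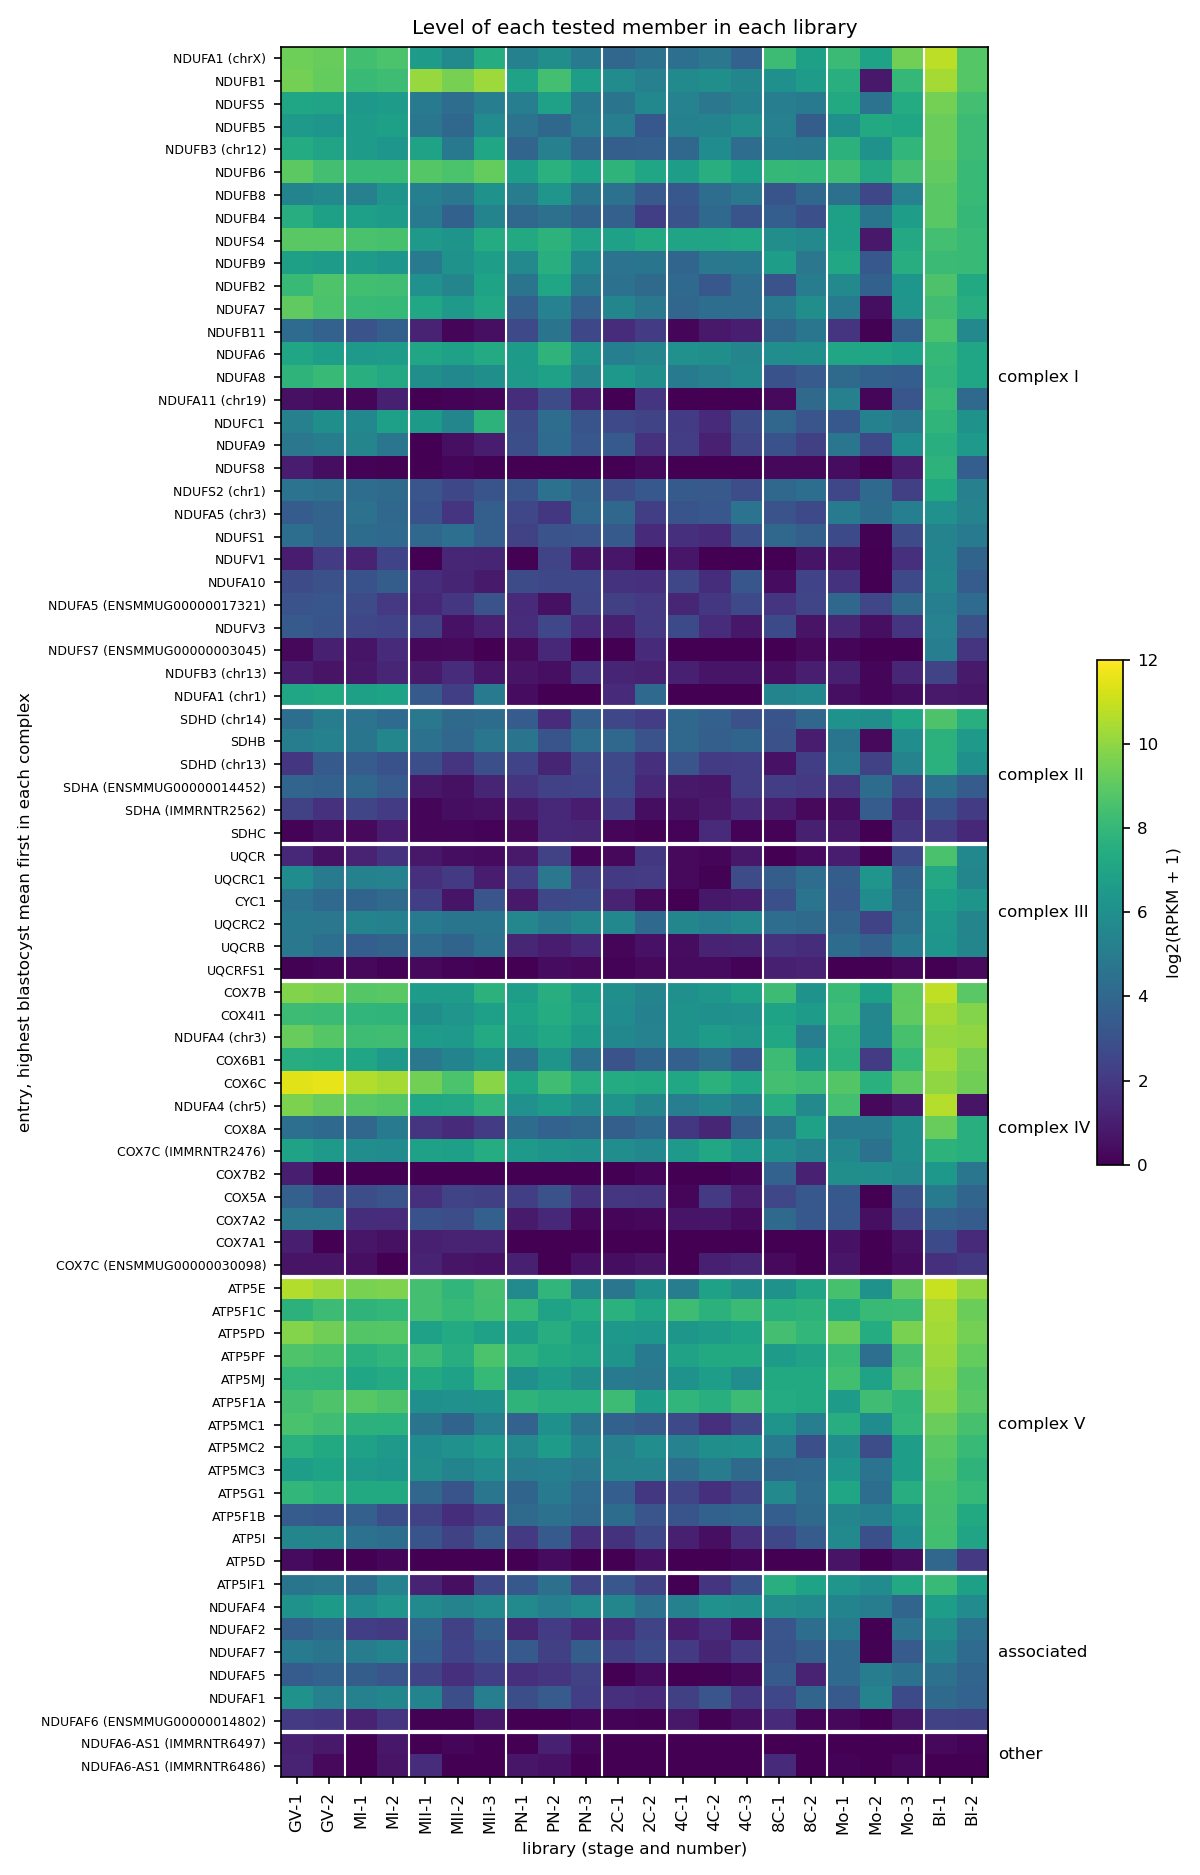
Level of each tested member (rows, grouped by complex and sorted by the blastocyst mean) in each of the 22 libraries (columns, in stage order) as log2(RPKM + 1). Most rows are dark between PN and 4C and brightest in the 2 blastocysts, and library 2 of the morulae is darker than libraries 1 and 3 in many rows.

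The 5 complexes followed this course at different levels. Complex V had the highest median in every library but 8C library 2, where that of complex IV was higher. The median over its 13 entries was 242 and 236 RPKM in GV oocytes, 29.9 and 28.6 RPKM in 2C embryos, and 615 and 360 RPKM in blastocysts. Complex IV medians were 121 and 87.0 RPKM in GV oocytes, 10.7 to 18.3 RPKM in 4C embryos, and 600.0 and 181 RPKM in blastocysts. Complex I medians were 42.0 and 61.5 RPKM in GV oocytes, 7.73 to 8.51 RPKM in 4C embryos, and 256 and 89.5 RPKM in blastocysts. The medians of complexes II and III were below those of complex I in every library except morula library 2. Complex III reached the lowest point of the 5, at 0.251 to 1.14 RPKM in 4C embryos. Complex II was at 2.20 and 2.02 RPKM in 8C embryos, at 7.31 to 22.2 RPKM in morulae and at 111 and 37.1 RPKM in blastocysts. In the plot of medians by stage, complexes I, III and IV were already above their 4C values in both 8C embryos. Complex V overlapped between these stages, and both 8C values of complex II lay below its 3 values at 4C. Blastocyst library 1 had the higher median in all 5 complexes.

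**Figure D2:**
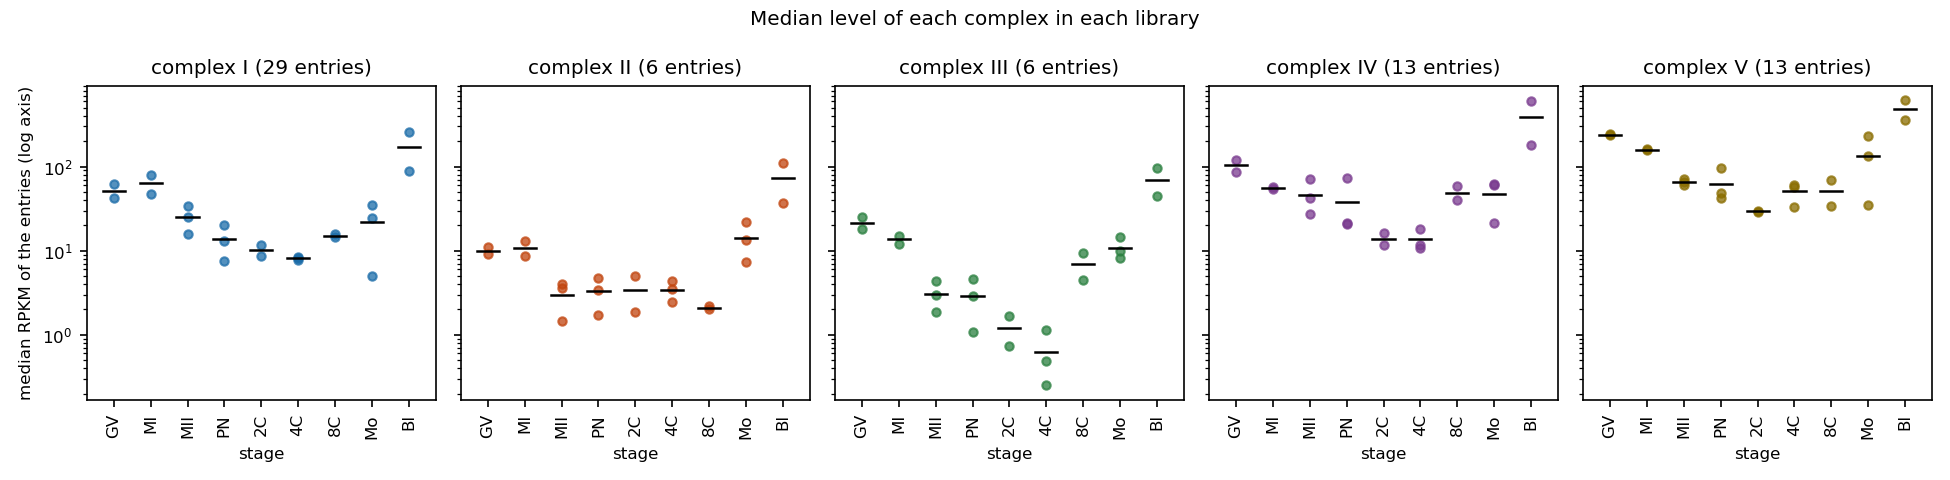
Median RPKM over the tested entries of each complex (log axis) in each library, by stage. Points are libraries and bars are stage means, and all 5 complexes reach their highest values in blastocysts.

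limma, which fits linear models with a pooled spread, tested each entry on the log2(RPKM + 1) scale, and an entry was called at a Benjamini-Hochberg adjusted p under 0.05. A log2 change on this scale understates the change of genes with low values. Between 2C and PN embryos no member was called (6 at an unadjusted p under 0.05), with 0.126% of all entries called higher and 0.342% lower. Between 4C and 2C embryos no member was called either (4 at an unadjusted p under 0.05), with 0.377% of all entries called higher and 0.196% lower (0.573% in either direction). Without MII library 3 or 2C library 1, 1 member was called in each of these 2 comparisons. Without morula library 2 the comparison of 2C with PN gave 2 calls, and without MII library 2 that of 4C with 2C gave 1 call.

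**Figure D3:**
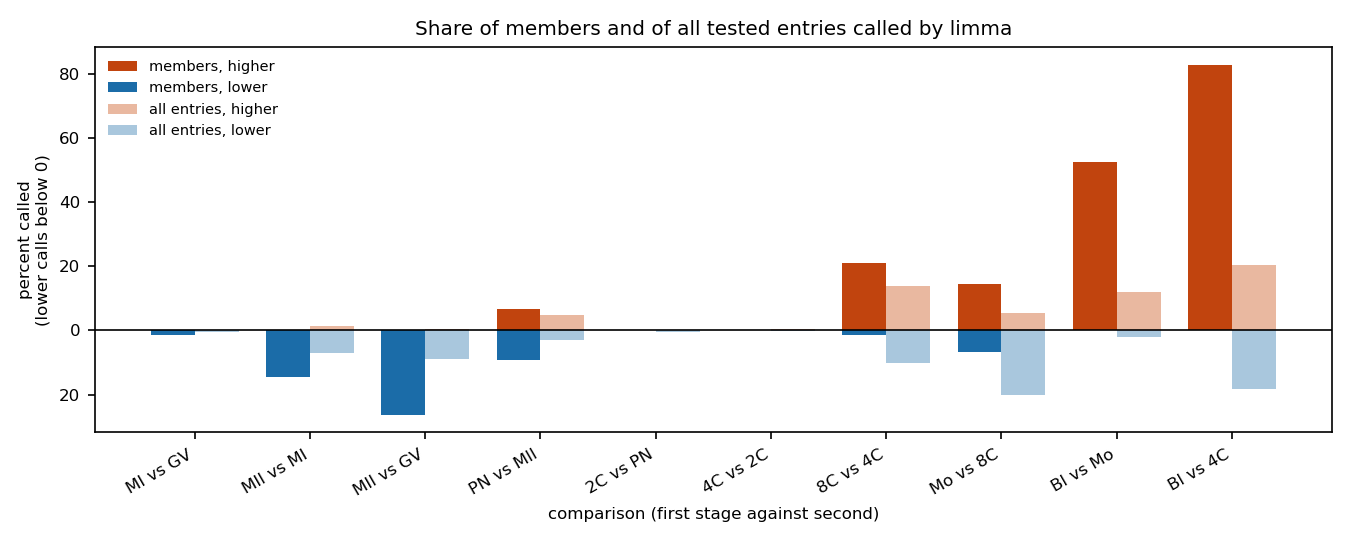
Percent of the 76 tested members (dark bars) and of all 14312 tested entries (pale bars) that limma called higher (upward) or lower (downward) in each comparison of a later with an earlier stage. The members exceed all entries most in the comparisons of Bl with Mo and of Bl with 4C, where 40 and 63 members were called higher.

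Members called lower in MII than in GV oocytes came from every complex, and most from complexes I, IV and V, which also hold most tested entries. In MII against GV oocytes 20 members were called lower (8.97% of all entries were, and 9.31% were called in either direction), with 7 of 29 in complex I, 1 of 6 in complex II, 1 of 6 in complex III, 4 of 13 in complex IV, 5 of 13 in complex V and 2 of 7 among associated factors. No member was called higher (0 at an unadjusted p under 0.05), against 0.342% of all entries. The median log2 change of the members was -1.26, and -0.19 over all entries. By complex the median was -1.88 for complex IV, -1.37 for complex V, -1.02 for complex I, -0.55 for complex II and -0.40 for complex III. In MII against MI oocytes 11 members were called lower (6.99% of all entries, with 8.48% called in either direction), and none higher (2 at an unadjusted p under 0.05, with 1.49% of all entries called). After median-of-ratios scaling the calls against MI were 1 higher and 6 lower, and those against GV were 12, all lower and none in complex III, with the median of all entries at -0.04. In MI against GV oocytes 1 member was called, COX7A2, which was lower, where 0.377% of all entries were called lower and 0.210% higher.

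The largest fall of the MII oocyte was in NDUFA9, which helps hold the membrane and matrix arms of complex I together. NDUFA9 was at 0.024, 0.408 and 0.950 RPKM in MII oocytes, against 43.05 and 25.4 RPKM in MI and 26.5 and 32.6 RPKM in GV oocytes. All 3 MII values were below 1 RPKM and far from the other oocytes (log2 change -4.43, SE 0.75, limma adjusted p = 0.00143 against GV, and log2 change -4.60, SE 0.75, limma adjusted p = 0.00102 against MI). ATP5MC1, which encodes subunit c of the membrane ring of ATP synthase, was at 23.5, 13.8 and 34.6 RPKM in MII oocytes, against 208 and 204 RPKM in MI and 369.6 and 317 RPKM in GV oocytes. The groups did not overlap (log2 change -3.87, SE 0.66, limma adjusted p = 0.00144 against GV). ATP5F1A, the alpha subunit of the catalytic head, had 63.5, 65.5 and 71.3 RPKM in MII oocytes, against 336 and 413 RPKM in GV oocytes (log2 change -2.47, SE 0.49, limma adjusted p = 0.00421). COX6C, a small subunit of complex IV and the most abundant member of the GV oocyte, had 702, 391 and 939 RPKM in MII oocytes, against 2802 and 2993 RPKM in GV oocytes (log2 change -2.18, SE 0.48, limma adjusted p = 0.00716). UQCRC1, a core subunit of complex III, had 2.14, 3.13 and 0.897 RPKM in MII oocytes, against 56.4 and 30.1 RPKM in GV oocytes (log2 change -3.86, SE 0.91, limma adjusted p = 0.0107). SDHA, the flavoprotein subunit that oxidizes succinate, had 0.689, 0.433 and 1.34 RPKM in its Ensembl entry in MII oocytes, against 14.2 and 12.4 RPKM in GV oocytes (log2 change -3.004, SE 0.62, limma adjusted p = 0.00528). In these 4 genes, too, every MII library lay below both GV libraries. Against GV the calls of NDUFA9 and ATP5MC1 held without each library in turn, and those of the others did not: ATP5F1A without GV library 2 (adjusted p 0.0564), COX6C without GV library 1 or 2 (adjusted p 0.0712 to 0.0828), UQCRC1 without GV library 1 or 2 (adjusted p 0.0532 to 0.152) and SDHA (ENSMMUG00000014452) without GV library 1 (adjusted p 0.0800). The UQCRC1 call was also lost under median-of-ratios scaling (limma adjusted p 0.0625), and with no filter NDUFA9 and ATP5MC1 kept their calls against GV and these 4 genes did not.

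Other members of the MII oocyte did not follow. NDUFB1, an accessory subunit of the membrane arm of complex I, was at 1118, 735 and 1225 RPKM in MII oocytes, against 282 and 312 RPKM in MI and 730.4 and 578 RPKM in GV oocytes, and at 120.4, 344 and 104 RPKM in PN embryos. NDUFB6, another accessory subunit of that arm, was at 456, 391 and 567 RPKM in MII oocytes, against 273 and 277 RPKM in MI and 498 and 343 RPKM in GV oocytes. NDUFB1 and NDUFB6 had their highest stage mean in MII oocytes, and neither was called against GV or MI. COX7A2, a small complex IV subunit, was at 1.94 and 1.90 RPKM in MI oocytes, against 25.9 and 26.3 RPKM in GV oocytes (log2 change -3.21, SE 0.65, limma adjusted p = 0.0204), and at 7.08, 6.16 and 11.7 RPKM in MII oocytes. In these 3 genes and in UQCRB, which were picked out for this pattern after their values were seen, every GV and every MII library was above every MI, PN, 2C and 4C library.

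The counts of the oocyte comparisons rested on single libraries. Against GV the 20 calls became 4 without GV library 1, 6 without GV library 2, 10 without MII library 2 and 33 without morula library 2. Against MI the 11 calls became 1 without MI library 1, 3 without MI library 2, 6 without MII library 2 and 28 without morula library 2, and the call of COX7A2 between MI and GV was lost without GV library 1 or 2 or MI library 1 or 2 (adjusted p 0.186 to 0.22). Of 17 entries for cumulus and granulosa markers, 2 reached 1 RPKM in MII and 2 in GV oocytes, with sums of 23.4 to 91.2 RPKM in MII and 22.5 and 68.6 RPKM in GV oocytes that were nearly all TNFAIP6, while AMH, AMHR2, FOXL2, INHA and PTX3 were at 0 in both; their part in the oocyte changes was not tested.

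**Figure D4:**
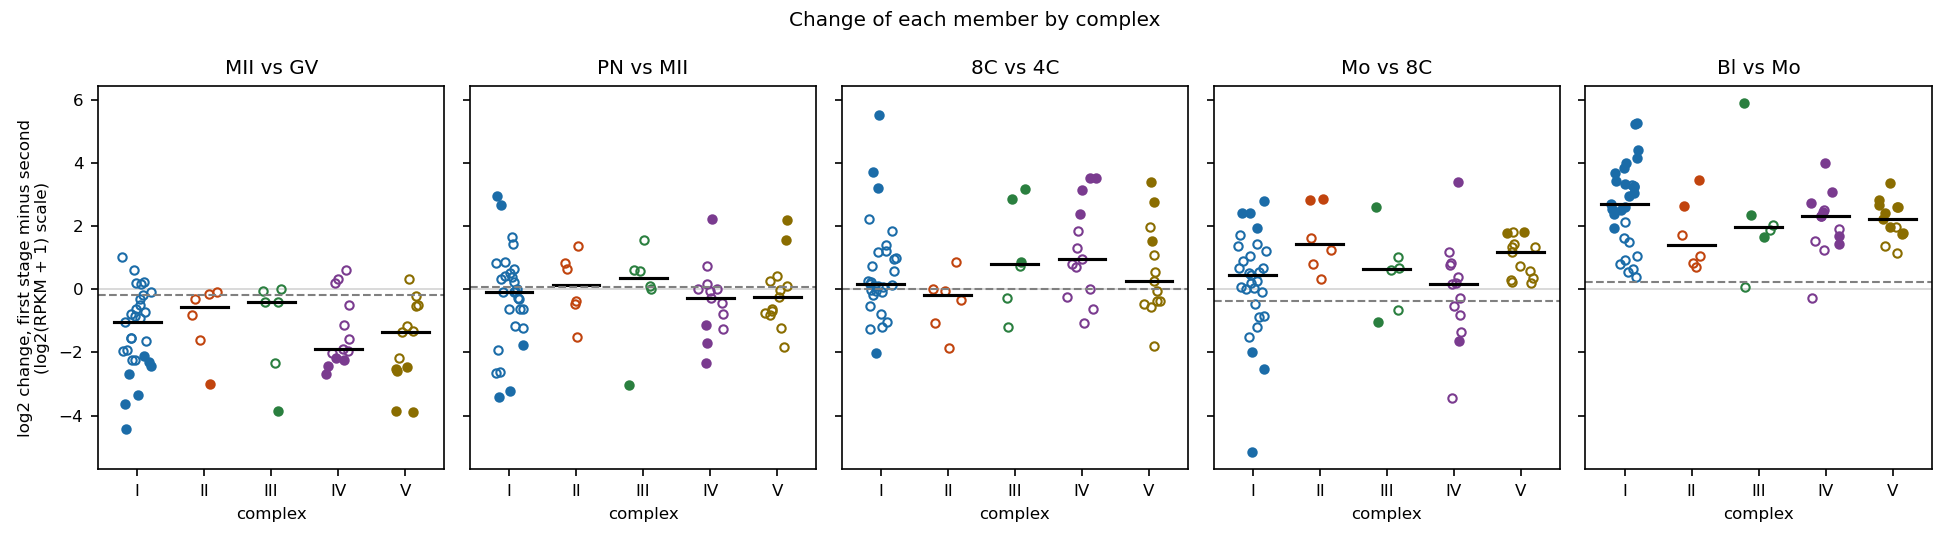
Log2 change of each tested member of complexes I to V (log2(RPKM + 1) scale, first stage minus second) by complex in 5 comparisons. Filled points were called by limma, black bars are medians of the complex and the dashed line is the median of all tested entries; the points of all complexes lie mostly below 0 in MII vs GV and above 0 in Bl vs Mo.

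After fertilization the members moved in both directions. In PN embryos against MII oocytes 5 members were called higher (4.76% of all entries) and 7 lower (2.91%), with 7.66% of all entries called in either direction, and the median log2 change was -0.06, against 0.06 over all entries. ATP5F1B, the beta subunit that carries the catalytic sites of ATP synthase, was at 16.8, 21.3 and 15.6 RPKM in PN embryos, against 4.13, 1.94 and 3.45 RPKM in MII oocytes (log2 change 2.21, SE 0.45, limma adjusted p = 0.00485). ATP5F1A, which pairs with it in the head, was at 222, 183 and 192 RPKM in PN embryos, against 63.5, 65.5 and 71.3 RPKM in MII oocytes (log2 change 1.56, SE 0.44, limma adjusted p = 0.0359). NDUFA9 was at 6.48, 17.2 and 8.63 RPKM in PN embryos, against 0.024, 0.408 and 0.950 RPKM in MII oocytes (log2 change 2.95, SE 0.67, limma adjusted p = 0.0103). COX8A, a small subunit of complex IV, was at 17.7, 12.7 and 15.5 RPKM in PN embryos, against 2.50, 1.73 and 3.30 RPKM in MII oocytes (log2 change 2.23, SE 0.62, limma adjusted p = 0.0325). In each of these genes the PN and MII libraries did not overlap, and ATP5F1A, NDUFA9 and COX8A were also among those called lower in MII against MI oocytes, which share the MII libraries. A further entry carries ATP5B, the older symbol of ATP5F1B, in the WikiGene column only. The ATP5B entry was at 46.2, 38.2 and 48.7 RPKM in PN embryos, against 22.9, 10.3 and 20.3 RPKM in MII oocytes. The size of the change in this gene thus depends on the entry.

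In the other direction, UQCRB, a small complex III subunit that binds ubiquinone, was at 1.41, 0.896 and 1.63 RPKM in PN embryos, against 17.5, 13.8 and 22.3 RPKM in MII oocytes (log2 change -3.02, SE 0.40, limma adjusted p = 0.000121). NDUFC1, an accessory subunit of complex I, was at 5.59, 18.6 and 7.62 RPKM in PN embryos, against 92.4, 45.0 and 214 RPKM in MII oocytes (log2 change -3.23, SE 0.66, limma adjusted p = 0.00503). NDUFB6 was at 106, 202 and 122 RPKM in PN embryos, against 456, 391 and 567 RPKM in MII oocytes (log2 change -1.75, SE 0.41, limma adjusted p = 0.0120). None of the 3 genes overlapped between the stages. The calls of ATP5F1B, UQCRB and NDUFC1 held without each library in turn, and these were lost: ATP5F1A without MII library 1 or 2 or 3 or PN library 1 or 2 or 3 (adjusted p 0.0778 to 0.107), NDUFA9 without MII library 1 or PN library 2 (adjusted p 0.0541 to 0.0563), COX8A without MII library 1 or 2 or 3 or PN library 1 or 2 or 3 (adjusted p 0.0640 to 0.116) and NDUFB6 without MII library 3 or PN library 1 (adjusted p 0.0513 to 0.0568). With no filter 11 of 12 named limma calls were lost, among them ATP5F1B (adjusted p 0.135) and NDUFC1 (adjusted p 0.123). UQCRB kept its call. After median-of-ratios scaling 2 members were called higher and 6 lower, and the calls of ATP5F1A (adjusted p 0.0858) and COX8A (adjusted p 0.0719) were lost. The 12 calls became 6 without MII library 1, 5 without MII library 3, 6 without PN library 1 and 6 without PN library 3. The cumulus and granulosa markers summed to 11.9 to 14.4 RPKM in PN embryos, against 23.4 to 91.2 RPKM in MII oocytes, with 2 of 17 entries reaching 1 RPKM in each, and their part in these changes was not tested.

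At the 8C stage, when the embryonic genome is activated in this species, 16 members were called higher than in 4C embryos (13.9% of all entries) and 1 lower (10.2%). The median log2 change was 0.47, and 0 over all entries. Calls were spread over complex I (3 of 29 higher, 1 lower), complex III (3 of 6), complex IV (4 of 13), complex V (3 of 13) and the associated factors (3 of 7), while in complex II no member was called (0 at an unadjusted p under 0.05) and the median was -0.19. Among the complex III calls was UQCRFS1, which passed the filter through the 8C libraries alone, and without it complex III had 2 of 5. The largest change was in ATP5IF1, the inhibitor that stops ATP synthase from running backwards. ATP5IF1 was at 181 and 124 RPKM in 8C embryos, against 0, 2.60 and 7.20 RPKM in 4C embryos, and the stages were far apart (log2 change 5.61, SE 0.80, limma adjusted p = 4.26e-05). ATP5MC1 was at 72.02 and 33.9 RPKM in 8C embryos, against 5.22, 2.10 and 4.79 RPKM in 4C embryos (log2 change 3.39, SE 0.66, limma adjusted p = 0.000804). COX8A was at 25.4 and 118 RPKM in 8C embryos, against 2.89, 1.46 and 10.7 RPKM in 4C embryos (log2 change 3.54, SE 0.69, limma adjusted p = 0.000861). COX7A2 was at 16.8 and 8.85 RPKM in 8C embryos, against 0.583, 0.630 and 0.280 RPKM in 4C embryos (log2 change 3.15, SE 0.60, limma adjusted p = 0.000643). In each of these genes both 8C libraries lay above the 4C libraries.

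Members of complexes I, III and IV were among the other calls at 8C. CYC1, the heme-bearing cytochrome c1 of complex III, was at 6.60 and 23.5 RPKM in 8C embryos, against 0, 0.709 and 0.947 RPKM in 4C embryos (log2 change 3.19, SE 0.78, limma adjusted p = 0.00549). NDUFB11, an accessory subunit of complex I encoded on the X chromosome in humans, was at 15.2 and 25.4 RPKM in 8C embryos, against 0.131, 0.754 and 1.01 RPKM in 4C embryos (log2 change 3.70, SE 0.89, limma adjusted p = 0.00450). COX6B1, which lies on the intermembrane side of complex IV, was at 297 and 79.8 RPKM in 8C embryos, against 11.8, 18.3 and 8.94 RPKM in 4C embryos (log2 change 3.52, SE 1.16, limma adjusted p = 0.0329). All 3 were without overlap, although the 2 values at 8C differed widely in CYC1 and COX6B1. NDUFA8, an accessory subunit of complex I, was the only member called lower with all libraries in the fit, at 7.22 and 10.01 RPKM in 8C embryos, against 30.4, 35.9 and 48.3 RPKM in 4C embryos (log2 change -2.02, SE 0.44, limma adjusted p = 0.00233). Its lowest stage mean was the 8C stage.

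Of the 8C calls named here, these were lost: CYC1 without 8C library 2 (adjusted p 0.0963) and COX6B1 without 4C library 1 or 3 or 8C library 1 (adjusted p 0.0716 to 0.270). With no filter CYC1, NDUFB11, COX6B1 and NDUFA8 lost their calls. The 17 calls became 8 without 8C library 1, and 21 higher and 6 lower without morula library 2, with at least 1 lower call in each of the 5 complexes. Transcripts listed as sperm markers summed to 10.9 and 45.2 RPKM in 8C embryos, with 2 of 9 entries reaching 1 RPKM (TNP1 and 1 entry of ODF1), against 0 in 4C embryos, and PRM1 and PRM2 were at 0 in both; their part in these changes was not tested.

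In morulae against 8C embryos 11 members were called higher (5.39% of all entries) and 5 lower (20.0% of all entries). The median log2 change was 0.49, while that of all entries was -0.38. The median was highest in complex II (1.44, 2 of 6 called higher) and complex V (1.19, 2 of 13), and with all libraries lowest among the 5 complexes in complex IV (0.16, with 1 of 13 called higher and 1 lower). Among the lower calls was UQCRFS1, which passed the filter through the 8C libraries alone, so its call is no support. Without the members that passed through a single stage, 11 were called higher and 4 lower, with 0 lower in complex III. SDHD, a membrane anchor of complex II, was at 69.8, 61.04 and 133 RPKM in its chromosome 14 entry in morulae, against 7.56 and 14.3 RPKM in 8C embryos (log2 change 2.87, SE 0.60, limma adjusted p = 0.00150). UQCRB was at 17.7, 11.7 and 28.5 RPKM in morulae, against 2.31 and 1.99 RPKM in 8C embryos (log2 change 2.61, SE 0.45, limma adjusted p = 0.000236). NDUFB4, an accessory subunit of complex I, was at 110.2, 23.99 and 104 RPKM in morulae, against 10.96 and 6.52 RPKM in 8C embryos (log2 change 2.81, SE 0.66, limma adjusted p = 0.00353). In these genes the 3 morulae lay above both 8C embryos, library 2 included.

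Members of the catalytic head and ring of ATP synthase were also higher, and an electron-path subunit of complex I was lower. ATP5F1B was at 45.02, 34.7 and 72.7 RPKM in morulae, against 10.9 and 16.6 RPKM in 8C embryos (log2 change 1.77, SE 0.50, limma adjusted p = 0.0129). ATP5MC3, a second gene for subunit c, was at 78.8, 22.8 and 104 RPKM in morulae, against 15.1 and 16.3 RPKM in 8C embryos (log2 change 1.81, SE 0.52, limma adjusted p = 0.0146). NDUFS1, the iron-sulfur subunit that takes electrons into the peripheral arm of complex I, was at 5.42, 0.040 and 5.82 RPKM in morulae, against 15.02 and 11.6 RPKM in 8C embryos (log2 change -1.99, SE 0.71, limma adjusted p = 0.0463). The 3 morulae did not overlap with the 8C embryos in any of these genes. The calls of SDHD (chromosome 14), UQCRB and NDUFB4 held without each library, and these were lost: ATP5F1B without 8C library 1 or Mo library 3 (adjusted p 0.0508 to 0.113), ATP5MC3 without 8C library 1 or 2 or Mo library 3 (adjusted p 0.0618 to 0.0767) and NDUFS1 without any 1 of 17 libraries (adjusted p 0.0512 to 0.189).

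The balance of the morula calls depended on scale and on 1 library. After median-of-ratios scaling 19 members were called higher and 2 lower, with the median of all entries at -0.27, and without morula library 2 the calls were 27 higher and 3 lower. Without that library complex V had the highest median (2.01, 10 of 13 called higher), followed by complex II (1.93), complex I (1.02), complex IV (0.56) and complex III (-0.06), so the order of the complexes changed and the sign of complex III turned. Without 8C library 1 or 8C library 2 there were 7 calls, and with only the morula and 8C libraries in the fit there were 3. With no filter, NDUFB4, ATP5F1B, ATP5MC3 and NDUFS1 lost their calls, and SDHD (chromosome 14) and UQCRB kept them.

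In blastocysts against morulae 40 of 76 members were called higher, where 12.0% of all entries were. None was called lower (0 at an unadjusted p under 0.05), where 2.12% of all entries were. The median log2 change was 2.19, against 0.23 over all entries. Calls took 18 of 29 entries of complex I (median 2.70), 2 of 6 of complex II (1.39), 3 of 6 of complex III (1.96), 7 of 13 of complex IV (2.32), 9 of 13 of complex V (2.24) and 1 of 7 associated factors (1.46). Set against 4C embryos, 63 of 76 members were called higher in blastocysts (20.5% of all entries) and none lower (0 at an unadjusted p under 0.05, against 18.4% of all entries called), with a median log2 change of 3.31, against 0 over all entries. That comparison reached 26 of 29 entries of complex I, 4 of 6 of complex II, 4 of 6 of complex III, 11 of 13 of complex IV and all 13 of complex V. NDUFS8 and ATP5D passed the filter through the blastocyst libraries alone, and without them and the other members that passed through a single stage, the calls against 4C embryos were 25 of 28 in complex I and 12 of 12 in complex V, and against morulae 17 of 28 and 8 of 12.

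In complex I the changes included subunits of the electron path. NDUFV1, the flavoprotein that accepts electrons from NADH, was at 41.7 and 13.6 RPKM in blastocysts, against 0.657, 0 and 2.12 RPKM in morulae (log2 change 3.85, SE 0.70, limma adjusted p = 0.000798), and at 0.673, 0 and 0 RPKM in 4C embryos. NDUFS1 was at 40.1 and 30.6 RPKM in blastocysts, against 5.42, 0.040 and 5.82 RPKM in morulae (log2 change 3.34, SE 0.71, limma adjusted p = 0.00330). NDUFS8, which carries a pair of iron-sulfur clusters near the quinone site, was at 216 and 11.03 RPKM in blastocysts, against 0.321, 0 and 0.930 RPKM in morulae. NDUFS8 passed the filter through the blastocyst libraries alone, so its call there is no support, and it did not reach 1 RPKM in any library of the other stages, GV oocytes included. NDUFB8, an accessory subunit of the membrane arm, was at 489.9 and 273 RPKM in blastocysts, against 20.3, 5.04 and 38.4 RPKM in morulae (log2 change 4.42, SE 0.73, limma adjusted p = 0.000342). NDUFB11 was at 384 and 49.1 RPKM in blastocysts, against 2.46, 0.044 and 11.99 RPKM in morulae (log2 change 5.27, SE 0.89, limma adjusted p = 0.000423). NDUFA11, a membrane-arm subunit listed at 0 in all 3 libraries of 4C embryos in its chromosome 19 entry, was at 280.4 and 16.4 RPKM in blastocysts (limma adjusted p = 0.000611). In NDUFS8, NDUFB11 and NDUFA11 blastocyst library 1 was several times above library 2, yet both were above all libraries of the stage compared.

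In complexes II and III most subunits were higher in blastocysts than in 4C embryos. SDHA was at 20.4 and 10.2 RPKM in its Ensembl entry in blastocysts, against 0.739, 0.639 and 3.51 RPKM in 4C embryos (log2 change 2.73, SE 0.62, limma adjusted p = 0.00180). SDHB, the iron-sulfur subunit of complex II, was at 207 and 85.7 RPKM in blastocysts, against 15.2, 11.4 and 13.4 RPKM in 4C embryos (log2 change 3.23, SE 1.06, limma adjusted p = 0.0211). SDHD was at 398 and 192 RPKM in its chromosome 14 entry in blastocysts, against 15.4, 11.9 and 6.75 RPKM in 4C embryos (log2 change 4.56, SE 0.60, limma adjusted p = 8.32e-06). SDHC, the other anchor, was at 3.37 and 1.57 RPKM in blastocysts, against 0.087, 1.75 and 0.084 RPKM in 4C embryos, and was not called. CYC1 was at 107 and 72.5 RPKM in blastocysts, against 0, 0.709 and 0.947 RPKM in 4C embryos (log2 change 5.90, SE 0.78, limma adjusted p = 8.90e-06). UQCRC1 was at 153 and 45.03 RPKM in blastocysts, against 0.236, 0.057 and 5.89 RPKM in 4C embryos (log2 change 5.34, SE 0.91, limma adjusted p = 0.000121). Its core partner UQCRC2 was at 82.99 and 42.96 RPKM in blastocysts, against 13.3, 4.49 and 20.6 RPKM in morulae and 44.4, 35.3 and 45.8 RPKM in 4C embryos, and it was called against morulae (log2 change 2.35, SE 0.53, limma adjusted p = 0.00538) but not against 4C embryos. In RPKM, which is per length, UQCRC2 was thus above UQCRC1 in every 4C library and below it in both blastocysts. UQCRFS1, the Rieske iron-sulfur protein, did not pass 1.295 RPKM in any library.

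In complexes IV and V, 11 of 13 and 13 of 13 entries, ATP5D included, were called higher in blastocysts than in 4C embryos. COX4I1, the regulatory subunit that is built in first around the catalytic core, was at 1341 and 879 RPKM in blastocysts, against 305, 45.9 and 538 RPKM in morulae and 67.7, 64.8 and 65.1 RPKM in 4C embryos (log2 change 4.02, SE 0.66, limma adjusted p = 8.72e-05). COX6B1 was at 1275 and 749.9 RPKM in blastocysts, against 206, 3.27 and 249.9 RPKM in morulae and 11.8, 18.3 and 8.94 RPKM in 4C embryos (log2 change 6.18, SE 1.16, limma adjusted p = 0.000324). COX5A, a matrix-side subunit, was at 30.2 and 14.3 RPKM in blastocysts, against 0.155, 3.12 and 1.04 RPKM in 4C embryos (log2 change 3.36, SE 0.77, limma adjusted p = 0.00186). Both blastocysts were above every 4C embryo in all 3 genes. ATP5F1B was at 351 and 155 RPKM in blastocysts, against 7.58, 12.4 and 13.9 RPKM in 4C embryos (log2 change 4.29, SE 0.50, limma adjusted p = 1.88e-06). ATP5F1A was at 909 and 485 RPKM in blastocysts, against 236, 191 and 295 RPKM in 4C embryos (log2 change 1.48, SE 0.49, limma adjusted p = 0.0225). ATP5F1C, the central gamma stalk, was at 1404 and 624 RPKM in blastocysts, against 305, 209.6 and 289 RPKM in 4C embryos (log2 change 1.82, SE 0.44, limma adjusted p = 0.00269). In RPKM the level of ATP5F1B was far below those of ATP5F1A and ATP5F1C in every 4C embryo, and both blastocysts lay above every 4C embryo in all 3 genes. ATP5I, a membrane subunit (e) of the synthase, was at 327 and 127 RPKM in blastocysts, against 1.08, 0.391 and 2.15 RPKM in 4C embryos (log2 change 6.61, SE 0.75, limma adjusted p = 1.56e-06).

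For the named calls of blastocysts against 4C embryos, 27 of 33 held without each library, and these of the genes above were lost: SDHB without 4C library 2 or Bl library 1 (adjusted p 0.0508 to 0.178), ATP5F1A without 4C library 2 or Bl library 1 (adjusted p 0.0693 to 0.242) and ATP5F1C without Bl library 1 (adjusted p 0.0882). With no filter the same 3 genes lost their calls. The blastocyst comparison with morulae was less stable: without blastocyst library 1 its 40 calls became 8, with no filter 12, and with only the morula and blastocyst libraries in the fit 0 (57 members had an unadjusted limma p under 0.05 with all stages in the fit). Median-of-ratios scaling gave 28 calls, with 0 of 6 in complex II and 5 of 13 in complex V, and without morula library 2 there were 35 calls and the median was 1.66 over all members and 1.90 in complex I. NDUFV1, NDUFS1, NDUFB8 and NDUFB11 held their calls against morulae without each library, while UQCRC2 lost its call without blastocyst library 1 (adjusted p 0.111). Genes of the blastocyst epithelium summed to 961 and 1234 RPKM in blastocysts, with 5 of 9 entries reaching 1 RPKM, against 4.01 to 69.3 RPKM in morulae, where GATA2 and CDX2 were at 0, and their part in the change was not tested.

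Isoforms and copies of the same subunit followed different courses. Subunit c of ATP synthase is encoded by ATP5MC1, ATP5MC2 and ATP5MC3, which give the same mature protein with different import signals. ATP5MC1 made up 52.9 and 55.3% of their summed RPKM in GV oocytes, 50.9 and 54.8% in MI oocytes, 11.3 to 19.6% in MII oocytes, 13.7 to 32.6% in PN embryos, 8.56 and 13.8% in 2C embryos and 2.18 to 8.43% in 4C embryos. It then made up 59.9 and 61.0% in 8C embryos, 54.2 to 65.9% in morulae and 40.3 and 42.0% in blastocysts. The share of ATP5MC2 ran the other way, with 62.0 to 74.5% in 4C embryos and 11.5 and 26.2% in 8C embryos, and ATP5MC3 ranged from 12.8 to 45.4% over all libraries. ATP5MC2 was at 30.8 and 6.51 RPKM in 8C embryos, against 38.4, 61.1 and 63.6 RPKM in 4C embryos, so the direction differed from that of ATP5MC1. A further entry described in the file as an ATP synthase lipid-binding protein (ENSMMUG00000029649) has no symbol that the rule matches and was at 756 to 2562 RPKM in blastocysts, 39.5 to 42.8 RPKM in 8C embryos and 118 to 162 RPKM in 4C embryos. With it and ATP5G1 in the sum, ATP5MC1 made up 25.1 to 27.0% in GV oocytes, 0.81 to 2.81% in 4C embryos, 28.8 to 34.9% in 8C embryos and 13.8 to 19.2% in blastocysts, so the size of its share depends on which entries are counted. The entry named ATP5G1, the older symbol of ATP5MC1, had 0.309 to 1.05 times the level of ATP5MC1 in each library, and reads may be split between such near-identical entries.

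Complex IV has tissue-specific isoforms of several small subunits, some of which the data hold. COX7B2, known as a testis isoform of COX7B in humans, was at 12.7 and 1.13 RPKM in 8C embryos, 60.2, 58.3 and 48.9 RPKM in morulae and 82.8 and 25.5 RPKM in blastocysts, and at or below 1.004 RPKM in every earlier library. In morulae against 8C embryos it was called higher (log2 change 3.39, SE 0.58, limma adjusted p = 0.000255), with no overlap. Its counterpart COX7B was at 1825 and 482 RPKM in blastocysts and at 63.6, 81.6 and 115 RPKM in 4C embryos. COX7A1, the heart and muscle isoform, was at 5.50 and 1.68 RPKM in blastocysts, against 0 in all 3 libraries of 4C embryos. COX4I2, the lung isoform of COX4 and named only in the WikiGene column, was between 0.064 and 11.1 RPKM, and COX6A2 was at 0 in all libraries. NDUFA4L2, a hypoxia-induced relative of NDUFA4, was listed at 0 in every library.

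**Figure D5:**
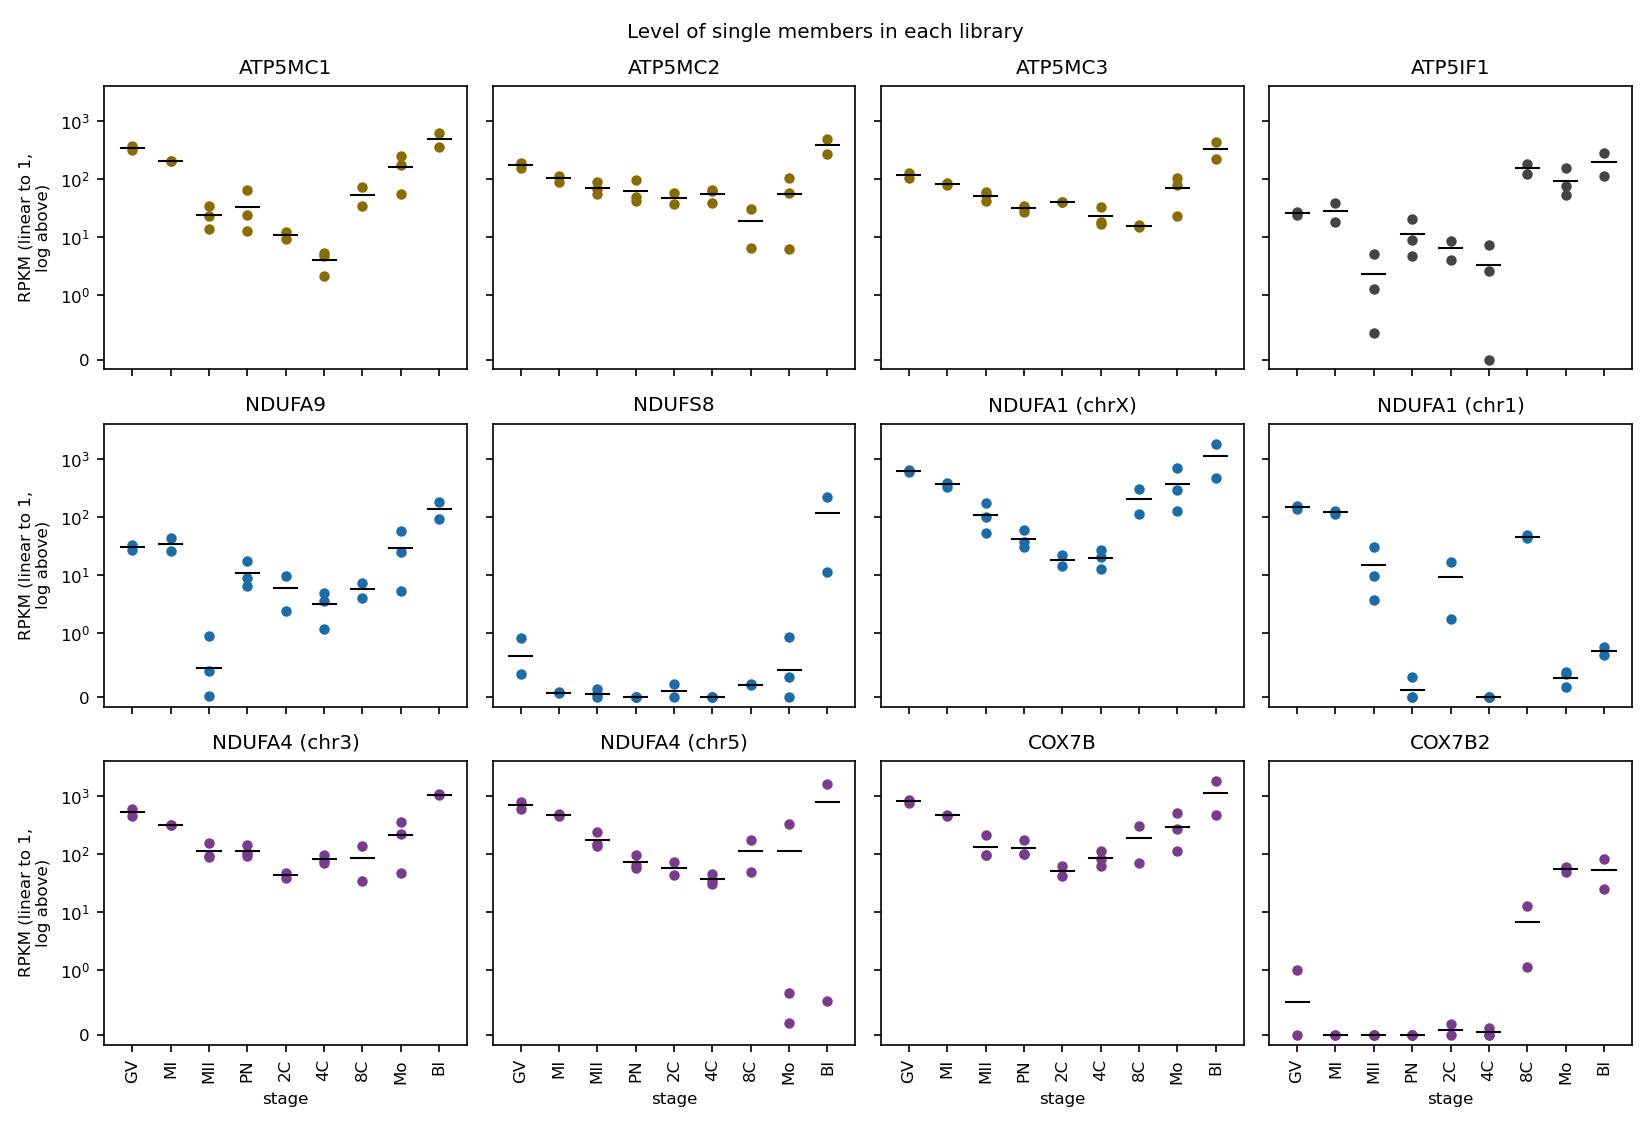
RPKM of 12 members (linear to 1, log above) in each library by stage, with bars at stage means. ATP5MC1, ATP5IF1 and chromosome 1 NDUFA1 lie high in 8C after low values in 4C, COX7B2 appears from 8C on, NDUFS8 is above 1 RPKM only in blastocysts, and chromosome 5 NDUFA4 splits within morulae and within blastocysts.

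Several members have a second, short entry of the same name elsewhere in the genome, which in some cases took a different course. NDUFA1, an accessory subunit needed for complex I assembly, has an entry on chromosome X (118172735 to 118177893) and another of 317 bases on chromosome 1 (37943381 to 37943697), as the file gives them; the build is Mmul_8.0.1 per the submitters' processing notes. The chromosome 1 entry was at 133 and 154 RPKM in GV oocytes, 9.54, 3.69 and 30.2 RPKM in MII oocytes, 0.318, 0 and 0 RPKM in PN embryos, 1.74 and 16.3 RPKM in 2C embryos and 0 in the 3 libraries of 4C embryos. It was at 42.1 and 47.7 RPKM in 8C embryos, 0.395, 0.156 and 0.358 RPKM in morulae and 0.779 and 0.661 RPKM in blastocysts. The chromosome X entry was at 296 and 113 RPKM in 8C embryos, 293, 123 and 692 RPKM in morulae and 1760.03 and 460.2 RPKM in blastocysts, so the entries parted after the 8C stage. Both entries were called higher at 8C against 4C (log2 change 3.21, SE 0.69, limma adjusted p = 0.00200 for chromosome X). The chromosome X call was lost without 8C library 1, where the log2 change was 2.52. The chromosome 1 entry was listed at 0 in 4C embryos and called higher at 8C (limma adjusted p = 6.24e-06), and it was called lower in morulae against 8C (log2 change -5.14, SE 0.67, limma adjusted p = 1.17e-05). Both of these chromosome 1 calls held without each library, while its call in MII against MI oocytes did not.

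NDUFA4 has an entry on chromosome 3 (115368699 to 115375492) and another of 264 bases on chromosome 5 (94508602 to 94508865). In GV oocytes the chromosome 5 entry stood above the other, at 801 and 610.2 RPKM, where the chromosome 3 entry was at 599 and 456 RPKM. In morulae the chromosome 5 entry was at 335, 0.188 and 0.644 RPKM in libraries 1, 2 and 3, where the chromosome 3 entry was at 227, 46.8 and 360.1 RPKM. In blastocysts it was at 1618 and 0.529 RPKM in libraries 1 and 2, where the chromosome 3 entry was at 1081 and 1033 RPKM. The entry was thus below 1 RPKM in 2 of 3 morulae and 1 of 2 blastocysts, and high in the remaining library of each. The ratio of the chromosome 5 to the chromosome 3 entry ran from 0.0005 to 1.68 over the 22 libraries, and no stage test called the chromosome 5 entry in blastocysts against 4C embryos (log2 change 0.40, SE 2.09, limma adjusted p = 0.917). The entries of SDHD on chromosomes 13 and 14 moved alike, with log2 changes of 2.82 and 2.87 in morulae against 8C embryos and of 4.37 and 4.56 in blastocysts against 4C embryos, all called, and their ratio ran from 0.0651 to 1.06.

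Assembly factors whose symbols match the rule did not all peak with the subunits. NDUFAF1, an early complex I assembly factor, was at 16.6 and 12.8 RPKM in blastocysts and 68.5 and 36.5 RPKM in GV oocytes, and had its highest stage mean in GV oocytes, as NDUFAF4 did. NDUFAF5, which modifies the quinone-binding module, was at 16.1, 33.5 and 20.95 RPKM in morulae, its highest stage, against 9.50 and 1.25 RPKM in 8C embryos (log2 change 2.27, SE 0.54, limma adjusted p = 0.00369). That call was lost without 8C library 2 (adjusted p 0.147). Of 46 tested entries for assembly and maturation factors with other names, 24 were called higher and 4 lower in blastocysts against 4C embryos, with a median log2 change of 1.70, below the 3.31 of the members. COA1, which helps complex I and IV assembly, was at 57.4, 34.7 and 75.3 RPKM in MII oocytes, against 532 and 515 RPKM in GV oocytes (log2 change -3.27, SE 0.43, limma adjusted p = 0.000280). TFAM, which packages and transcribes mitochondrial DNA, was at 26.3 and 28.1 RPKM in 8C embryos, against 0.247, 0.051 and 0.170 RPKM in 4C embryos (log2 change 4.61, SE 0.44, limma adjusted p = 3.18e-07). In both genes the stages compared did not overlap.

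The other lists of the pathway gave these counts for blastocysts against 4C embryos, where 20.5% of all entries were called higher and 18.4% lower. In the list of mitochondrial DNA upkeep and transcription 13 of 25 entries were called higher and 0 lower, with a median of 1.79. In the list of nuclear regulators of respiratory genes 5 of 15 were called higher and 1 lower (median 0.50). In the tricarboxylic acid cycle and pyruvate dehydrogenase list 10 of 28 were called higher and 3 lower (median 1.08). In the protein import list 22 of 38 were called higher and 1 lower (median 2.11), and among carriers and uncoupling proteins 7 of 18 were called higher and 2 lower (median 0.81). The 16 tested entries named only in the WikiGene column include the associated factors NDUFAF3 and COX7A2L. Of these entries 14 were called higher and 0 lower, with a median of 4.12. Among them ATP5F1, the b subunit of the stalk, was at 1135 and 562 RPKM in blastocysts, against 43.7, 41.2 and 47.9 RPKM in 4C embryos (log2 change 4.15, SE 0.54, limma adjusted p = 7.03e-06). COX7A2L, a factor that joins complexes III and IV and is no longer counted as a subunit, was at 245 and 135 RPKM in blastocysts, against 559.5, 702 and 603 RPKM in 4C embryos, where it had its highest stage mean.

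PDHB, a subunit of the pyruvate dehydrogenase complex that feeds the cycle, was at 1132 and 501 RPKM in blastocysts, against 0.278, 3.34 and 2.05 RPKM in 4C embryos (log2 change 8.20, SE 0.53, limma adjusted p = 2.82e-09). PDHA1, its partner, was at 19.1, 15.1 and 15.8 RPKM in MII oocytes, against 224 and 208 RPKM in GV oocytes (log2 change -3.62, SE 0.62, limma adjusted p = 0.00151). GABPA, a transcription factor of respiratory genes, was at 13.7 and 10.9 RPKM in blastocysts, against 191, 137 and 275 RPKM in 4C embryos (log2 change -3.88, SE 0.59, limma adjusted p = 3.94e-05). GABPA was thus lower where most members were higher. HSPD1, the matrix chaperonin, was at 1036 and 410.2 RPKM in blastocysts, against 18.2, 19.1 and 14.3 RPKM in 4C embryos (log2 change 5.17, SE 0.55, limma adjusted p = 7.09e-07). The calls of these 4 genes, of COA1 and TFAM at their stages, and of ATP5F1 held under every setting and without each library. In MII against GV oocytes 8.97% of all entries were called lower. There the lists had 7 of 46 (assembly), 2 of 25 (mitochondrial DNA), 0 of 15 (regulators) and 7 of 28 (cycle) entries called lower. The counts were 7 of 38 for import, 2 of 18 for carriers and 4 of 16 for the WikiGene entries.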

How the data were processed

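RPKM values per gene entry were deposited by the authors in 1 table of 22 libraries, each made from the lysate of a single oocyte or embryo with a low-input cDNA kit, per the labels. The genome build is Mmul_8.0.1 per the submitters' processing notes, and the aligner and counter are not given in the sources used here. Because RPKM is not a count, depth was estimated from short entries, under 200 bp long, whose values step by whole reads (463 of 499 values, 92.8%, lay within 0.05 of a whole number). The estimated depths limit what low values can show, and intervals from counts were not computed.

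Entries with 1 RPKM or more in at least 2 libraries (14312) were transformed as log2(RPKM + 1). Stage means were then estimated in limma (version 3.58.1, under R version 4.3.3) with the trend and robust options of its empirical Bayes step, which left 13 residual degrees of freedom. P-values were adjusted by the Benjamini-Hochberg method over all tested entries, and an adjusted p under 0.05 was a call. Changes are later minus earlier stage. Tables were summarised with pandas 2.3.3 and numpy 2.4.6, and plots drawn with matplotlib 3.10.9, all under Python version 3.11.15. The code was tested on simulated data.

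Named genes were a panel of subunits plus, in each comparison, up to 8 called members per direction with no overlap between the stages and a mean of at least 10 RPKM in the higher one, by size of change. For the other pathway lists, up to 2 called genes with the smallest adjusted p were eligible per comparison. Members, lists and tests were chosen with earlier results of these data known. Alternatives were a pseudocount of 0.1, no filter, a filter of 5 RPKM, median-of-ratios scaling, only the stages compared, a replicate block and leaving out each library. Stage was taken from the labels. No sequence is printed.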

Additional observations from a re-analysis of the deposited data

How the results depend on the processing

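No named call reversed direction. With only the stages compared in the fit, the balance of the Mo against 8C calls turned. Those calls went from 11 higher and 5 lower to 1 higher and 2 lower. Leaving out 1 library at a time gave 0 to 1 members called in MI against GV, 1 to 28 in MII against MI, 4 to 33 in MII against GV, 5 to 18 in PN against MII, 0 to 2 in 2C against PN, 0 to 1 in 4C against 2C, 8 to 27 in 8C against 4C, 7 to 30 in Mo against 8C, 8 to 50 in Bl against Mo, 46 to 67 in Bl against 4C and 56 to 70 in the F test. A pseudocount of 0.1 gave 0 calls in MI against GV, 13 in MII against GV, 1 in 2C against PN and 1 in 4C against 2C. No filter gave 0 in MI against GV, 1 in MII against MI, 2 in MII against GV, 1 in PN against MII, 6 in 8C against 4C, 5 in Mo against 8C, 12 in Bl against Mo and 43 in the F test. Median-of-ratios scaling gave 0 in MI against GV, 7 in MII against MI and 12 in MII against GV. Fits of only the stages compared gave 10, 36, 39 and 19 for MI against GV, MII against MI, MII against GV and PN against MII, 3 for Mo against 8C and 0 for Bl against Mo. The cause was not tested. Of 120 named calls of members, 64 were lost without some library, 72 with no filter, 40 with only the stages compared, 21 with scaling, 17 with the smaller pseudocount and 0 of 113 with the 5 RPKM filter. Of 72 named calls of the pathway lists, 17 were lost without some library and 33 under another setting, in alternatives added after seeing the data. Deviations of same-numbered libraries correlated at -0.074 to 0.324 (median 0.014), above 0.1 in 3 of 21 pairs. The pairs of 2C with PN embryos were at 0.204 and 0.324. With so few libraries in a stage and no donors in the labels, these values cannot show whether samples shared a donor or parent. With the replicate block the counts in the same order were 1, 14, 19, 11, 0, 0, 17, 15, 44, 62 and 66, and 3 named calls were lost.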
